A study of Mus musculus with 45 samples.

Results

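Loss of exon 1A of Prdm1 was examined in mouse B cells cultured for 7 days with antibody against the B cell receptor (BCR). Prdm1 encodes Blimp-1, the transcription factor that drives B cells to become antibody-secreting plasma cells. Blimp-1 represses genes of the B cell state, and Pax5, Bcl6 and Bach2 in turn restrain Prdm1, so that the factors form a mutually repressing circuit. Plasma cells then raise immunoglobulin output and enlarge the endoplasmic reticulum (ER), while division stops. The comparison used 6 of the series' 45 libraries, 3 from mice that lack exon 1A of Prdm1 (dEx1A) and 3 from wild type mice, chosen by their labels, and 19657 autosomal genes of the 28196 genes in the table.

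The cells were splenic B2 cells, the conventional B cells of the spleen, enriched by density and by removal of CD43-bearing cells (stated purity over 95%), and both groups were labelled as plasmablasts at day 7. All mice were C57BL/6. The dEx1A libraries were labelled female and 9 weeks old, and the wild type libraries male and 7 weeks old, whereas the protocol text calls the mice matched for sex and age. Genotype and these labels cannot be told apart in the BCR culture. Cells of both genotypes were grown on irradiated L cells that carry CD40L, with 12 µg/mL F(ab')2 fragments against IgM and IgG and 50 ng/mL each of the cytokines IL-4 and IL-5. The feeders were taken away at day 2. From day 4 the cells received 10 ng/mL IL-6 and 100 ng/mL of the plasma cell survival factor APRIL, with added lipids and amino acids. The labels do not say that replicates came from separate animals, so p-values measure only the spread between these samples.

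Expression values are variance-stabilised log2 levels per gene, in which 3.04 is the value of 0 reads. A genotype difference is the mean dEx1A level minus the mean wild type level, with its standard error (SE) from a limma fit to all 39 libraries of the table, and a gene passed at an adjusted p below 0.05. Recovered depth was 19.55, 17.05 and 17.65 M reads in the dEx1A libraries, against 23.5, 33.77 and 30.74 M reads in the wild type libraries. The dependence of a library's levels on the GC content of genes also differed. Its offset was 1.59, 0.66 and 0.80 log2 units in the dEx1A libraries, against -1.10, -0.18 and 0.33 in the wild type libraries, with no overlap. The part of depth in the results was not tested. A fit that corrects for GC content and length gives each difference without this trend, and its values are printed for named genes where they change a call or move a called difference by over 1.5 times. B cell identity of the libraries was checked on Cd79a, which encodes a signalling chain of the B cell receptor. Its level was 14.10, 13.31 and 13.23 in dEx1A cells, against 13.06, 13.73 and 14.19 in wild type cells. The ranges overlapped, and the gene did not pass (difference -0.11, adjusted p = 0.81), but after the correction it was lower by a difference of -0.69 (adjusted p = 0.00268).

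In dEx1A cells, 5133 of the 19657 autosomal genes were higher than in wild type cells, or 26.1% of those tested, and 4881 genes were lower, or 24.8%. By at least 1 log2 unit, 2674 genes were higher and 2100 were lower. The 3 dEx1A libraries lay wholly to one side of the 3 wild type libraries for 9999 genes, or 50.9%. After correction for GC content and length, 7647 of the 10014 genes that passed did so again in the same direction. The median difference over all tested genes was 0.00 and the median absolute difference 0.54. At day 4 of the same culture, 349 genes passed, or 1.78%. In the LPS culture at day 7, whose genotypes carry the same sex and age labels, 1396 genes passed, or 7.1%. The medium of that culture is not described in the labels. In the TLR culture at day 7, which combines LPS with feeders, IL-4 and IL-5 and whose genotypes carry the same label conflict as the BCR culture, 10811 genes passed, or 55.0%. The GC offsets were also apart there, at 1.04, 0.9 and 1.64 in dEx1A, against -1.25, -0.23 and -0.85 in wild type libraries. They overlapped in the LPS culture at day 7 (0.68, 0.97 and 1.06 against 0.96, 1.04 and 1.01). At BCR day 4 they overlapped too (-1.16, -0.39 and -1.18 against -0.8, 0.01 and -1.57). The part of the GC trend in how these shares differ was not tested.

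**Figure D1:**
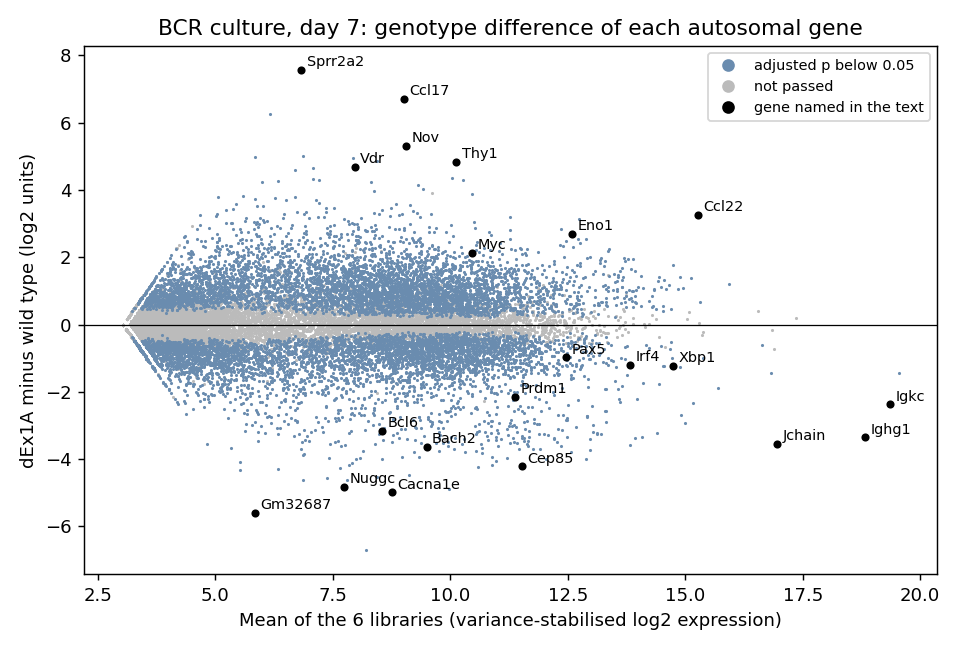
Genotype difference of each autosomal gene in the BCR culture at day 7 (vertical axis, dEx1A minus wild type in log2 units) against its mean variance-stabilised log2 level over the 6 libraries (horizontal axis). Blue points passed at an adjusted p below 0.05, grey points did not, and black points are named in the text. Sprr2a2 and Ccl17 lie at the top, and the immunoglobulin genes Igkc and Ighg1 lie far to the right below 0.

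Transcripts of other cell types were present in both groups and varied between libraries. Counts of markers that passed stand against 26.1% higher and 24.8% lower among all genes tested. The 16 macrophage markers summed to 1227, 458 and 2584 RPM (reads per M reads of the library) in dEx1A cells, against 462, 582 and 218 RPM in wild type cells. The groups overlapped because dEx1A replicate 2 was low, and 6 of the 16 markers were higher and 1 was lower. Lyz2, a macrophage and neutrophil lysozyme, had 2245, 65 and 7066 reads in dEx1A cells, against 2164, 5821 and 474 reads in wild type cells. The 14 T and NK cell markers summed to 119, 33.2 and 200 RPM in dEx1A cells, against 55.6, 41.2 and 31.2 RPM in wild type cells, and 2 of them were higher. Gzma, a killer cell protease, was one of these, at 3.48 ± 0.85 log2 units. Among the 9 neutrophil markers, 2 were higher, and their sum was 115, 6.16 and 356 RPM in dEx1A cells, against 68.8, 81.2 and 1.24 RPM in wild type cells. Among the 8 tested markers of mast cells and basophils, 3 were higher and 1 was lower, and the 9 markers of that list summed to 18.5, 5.04 and 16.9 RPM in dEx1A cells, against 14.4, 4.74 and 3.94 RPM in wild type cells. Of the 9 tested erythroid and platelet markers, Hbb-bt, a beta globin, was higher by 3.09, and the 10 markers of that list summed to 85.2, 40.6 and 141 RPM in dEx1A cells, against 12.3, 15.1 and 6.96 RPM in wild type cells. C1qa, a complement gene of macrophages, was at 0 in dEx1A replicate 2 and in no other library of the comparison. After GC and length correction, 4 macrophage, 2 T and NK cell and 1 neutrophil markers were higher. So were 2 markers of mast cells and basophils and 1 of erythroid cells and platelets. In that fit 1 marker was lower in the T and NK cell list and 1 in the mast cell and basophil list. The part of these other cell types in the results was not tested.

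Prdm1 itself (chr10:44437177-44528501 on the minus strand, GRCm38) was lower in dEx1A cells in the 4 comparisons given here. Its level in the BCR culture at day 7 was 10.02, 10.10 and 10.80 in dEx1A cells, against 12.48, 12.33 and 12.56 in wild type cells. The groups did not overlap, and the difference was -2.15 ± 0.28 (SE, n = 3 each, adjusted p = 2.52e-07). After GC and length correction it was -1.77. The deposited value covers the whole gene and does not separate exon 1A from the other exons, and the annotation, which gives transcript starts at 44458748, 44458687, 44457210 and 44528501, names no exon 1A. The value therefore does not check the deletion itself.

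At day 4 Prdm1 had 8.45, 7.27 and 8.82 in dEx1A cells, against 9.68, 9.32 and 10.23 in wild type cells, a difference of -1.56 (adjusted p = 0.000907). Prdm1 rose between day 4 and day 7 by 2.13 in dEx1A cells and by 2.71 in wild type cells. In the LPS culture at day 7 it had 11.10, 11.32 and 11.22 in dEx1A cells, against 12.40, 12.66 and 12.77 in wild type cells, a difference of -1.40 (adjusted p = 0.000949). The genotype difference in the BCR culture did not pass against that at day 4 (change -0.59 ± 0.40, adjusted p = 0.261) or against that in the LPS culture (-0.75 ± 0.40, adjusted p = 0.138). In the TLR culture the difference was -1.38 (adjusted p = 0.000145).

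**Figure D2:**
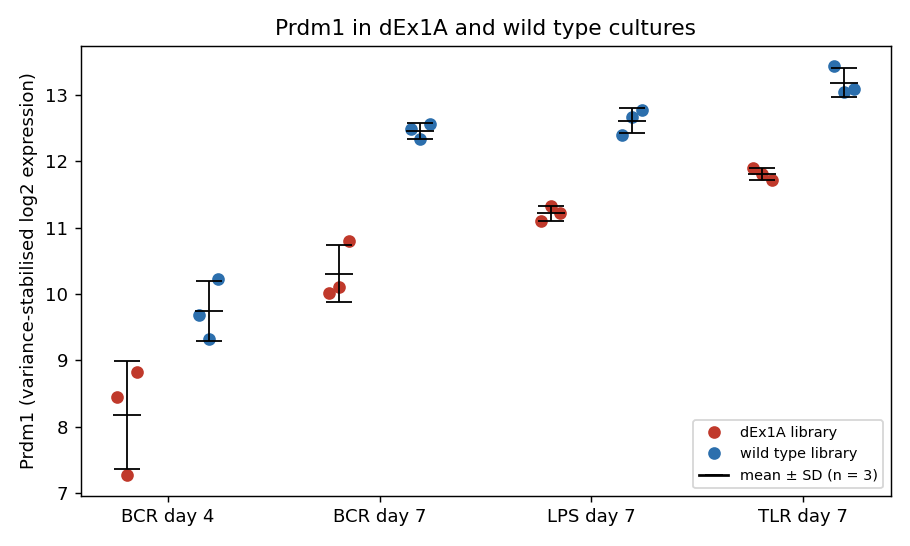
Variance-stabilised log2 level of Prdm1 in each library (points) with the mean ± SD of 3 libraries (black lines), dEx1A left of wild type, for the BCR culture at day 4 and day 7 and the LPS and TLR cultures at day 7. In each pair the 3 dEx1A libraries lie below the 3 wild type libraries, and at BCR day 7 they lie between 10.02 and 10.80 against 12.33 to 12.56.

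The counts of genes at BCR day 7 that follow stand against 26.1% higher and 24.8% lower among all genes tested. Counts for the LPS culture stand against 3.33% higher and 3.77% lower, and those for the TLR culture against 26.6% and 28.4%. Genes that Blimp-1 is known to repress went both ways. Of the 13 such genes from textbooks, 3 were higher and 6 were lower in dEx1A cells, with a median of -0.02, and after GC and length correction 3 were higher and 7 were lower with a median of -1.03. Bach2, a repressor that delays plasma cell formation, had 7.67, 7.65 and 7.73 in dEx1A cells, against 11.41, 11.49 and 11.03 in wild type cells. The groups were far apart, and the difference was -3.63 ± 0.16 (adjusted p = 3.3e-17). Bcl6, the repressor that maintains germinal centre B cells, had 7.27, 6.66 and 6.97 in dEx1A cells, against 9.88, 10.37 and 10.14 in wild type cells. It was lower by a difference of -3.16 ± 0.16 (adjusted p = 7.95e-16). Pax5, the factor that keeps B cells in their lineage, had 11.65, 12.35 and 11.95 in dEx1A cells, against 13.13, 12.99 and 12.74 in wild type cells. Its groups did not overlap either, and the difference was -0.97 ± 0.21 (adjusted p = 0.000394), or -1.88 after the correction.

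Myc, which encodes a transcription factor of cell growth that Blimp-1 represses in B cells, moved the other way. It had 11.53, 11.26 and 11.79 in dEx1A cells, against 9.25, 9.41 and 9.51 in wild type cells, without overlap and with a difference of 2.14 ± 0.18 (adjusted p = 6.04e-11). Ccr7, a chemokine receptor that guides cells to lymph nodes, was higher by 1.61, and Cd22, an inhibitory coreceptor, was lower by a difference of -2.22.

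The sequences upstream of the starts of this circuit are given from RefSeq (GRCm38.p6), since Prdm1, Bach2, Bcl6 and Pax5 were lower together. Each is the 250 bases before the annotated start, 5′ to 3′ on the gene's strand, and capitals mark matches to GNGAAAG, the core of the Blimp-1 motif, or to its reverse complement CTTTCNC.
Prdm1, chr10:44458749-44458998, minus strand: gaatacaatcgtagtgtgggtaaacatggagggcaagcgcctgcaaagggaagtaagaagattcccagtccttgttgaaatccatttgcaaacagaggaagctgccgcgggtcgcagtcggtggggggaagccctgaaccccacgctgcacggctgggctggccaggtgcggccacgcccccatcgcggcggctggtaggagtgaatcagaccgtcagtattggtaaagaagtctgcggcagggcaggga
Bach2, chr4:32417185-32417434, plus strand: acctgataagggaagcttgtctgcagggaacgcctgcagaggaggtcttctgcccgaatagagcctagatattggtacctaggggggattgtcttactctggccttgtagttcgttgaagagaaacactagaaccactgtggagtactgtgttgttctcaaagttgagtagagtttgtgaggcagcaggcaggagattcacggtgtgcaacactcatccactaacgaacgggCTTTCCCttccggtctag
Bcl6, chr16:23988853-23989102, minus strand: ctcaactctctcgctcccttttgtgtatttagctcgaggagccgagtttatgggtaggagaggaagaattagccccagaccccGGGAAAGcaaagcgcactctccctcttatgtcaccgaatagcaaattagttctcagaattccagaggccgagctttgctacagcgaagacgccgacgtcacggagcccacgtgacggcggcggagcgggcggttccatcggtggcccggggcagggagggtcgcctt
Pax5, chr4:44710695-44710944, minus strand: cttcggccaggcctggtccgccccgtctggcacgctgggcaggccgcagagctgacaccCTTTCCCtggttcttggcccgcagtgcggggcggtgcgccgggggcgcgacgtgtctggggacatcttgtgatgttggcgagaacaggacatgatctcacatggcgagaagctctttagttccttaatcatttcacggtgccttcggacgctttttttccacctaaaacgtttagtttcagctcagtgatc
The Prdm1 window held no match, and the Bach2, Bcl6 and Pax5 windows above held 1 each. RefSeq gives Bcl6 a further window, chr16:23981284-23981533, which held none. The same motif occurred in 6357 of 32851 such windows, or 19.4%. Of the 24 genes named below for the size of their difference, 18 matched the table of windows and 4 of these held the motif. A match is only a run of letters in this window.

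Transcription factors of plasma cells were mostly lower in dEx1A cells. Of the 16 genes on the list of such factors, which also holds Tent5c, 12 were lower and 2 were higher, with a median of -1.23. After the correction 14 were lower and 1 was higher. Irf4, which both Prdm1 expression and plasma cell survival need, had 12.95, 13.17 and 13.56 in dEx1A cells, against 14.31, 14.29 and 14.68 in wild type cells. The groups did not overlap, and the difference was -1.20 ± 0.18 (adjusted p = 1.97e-06), or -0.61 after GC and length correction (adjusted p = 0.00147). Xbp1, the factor that builds the secretory apparatus, had 14.12, 14.08 and 14.20 in dEx1A cells, against 15.18, 15.26 and 15.66 in wild type cells. It differed by -1.23 ± 0.17 (adjusted p = 6.67e-07). Tent5c, a poly(A) polymerase on the same list that stabilises immunoglobulin transcripts, had 11.87, 11.22 and 12.30 in dEx1A cells, against 14.13, 14.08 and 14.47 in wild type cells, a difference of -2.43 ± 0.21. Creb3l2 was lower by a difference of -1.93 and Bhlha15, the secretory cell factor also called Mist1, by -1.58. Id2, an inhibitor of E proteins, was higher by 1.15.

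Under LPS, 3 of these 16 genes were higher and 1 was lower, with a median of 0.01. In the TLR culture 3 were higher and 8 were lower, with a median of -0.32, and Xbp1 differed by -1.11 (adjusted p = 3.78e-06) and Irf4 by -0.17 (adjusted p = 0.428). Irf4 was higher in dEx1A cells under LPS, with 14.43, 14.47 and 14.58, against 13.50, 13.70 and 13.77 in wild type cells. The LPS difference was 0.84 (adjusted p = 0.00178). The BCR difference of Irf4 minus the LPS difference was -2.04 ± 0.25 (adjusted p = 3.08e-07). For Xbp1 the LPS difference was -0.01, and the BCR difference was further below it by -1.22 ± 0.24 (adjusted p = 0.000265). Zbtb20, a factor of long-lived plasma cells, had a difference of -1.34 in the BCR culture and of 1.58 in the LPS culture.

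Immunoglobulin transcripts were lower in dEx1A cells for most genes. They took 9.0%, 4.2% and 8.8% of the reads in dEx1A libraries, against 22.1%, 27.6% and 37.2% in wild type libraries. The groups did not overlap, and the exact two-sided permutation p was 0.1, the smallest that 3 against 3 allows. At day 4 the share was 1.0%, 0.9% and 0.9% in dEx1A libraries, against 1.5%, 1.6% and 1.4% in wild type libraries. The LPS culture had 27.4%, 24.8% and 30.9% in dEx1A libraries, against 28.0%, 31.4% and 34.3% in wild type libraries, and the ranges overlapped. They overlapped in the TLR culture too, with 34.1%, 28.8% and 40.3% in dEx1A libraries, against 37.4%, 44.4% and 37.3% in wild type libraries. In bulk RNA, fewer secreting cells and less immunoglobulin RNA per cell cannot be told apart.

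Of 12 immunoglobulin constant genes tested, 10 were lower and 1 was higher, with a median of -1.54. Igkc, the kappa light chain constant gene, had 18.91, 17.16 and 18.47 in dEx1A cells, against 19.99, 20.50 and 21.16 in wild type cells. The difference was -2.37 ± 0.34 (adjusted p = 1.01e-06). Ighg1, which encodes the constant part of IgG1, had 17.98, 16.18 and 17.27 in dEx1A cells, against 19.93, 20.51 and 21.05 in wild type cells, and differed by -3.35 ± 0.46 (adjusted p = 6.67e-07). Ighg2b differed by -3.49 and Ighd by -3.32. Ighe, which encodes the constant part of IgE, was the gene that passed as higher. It had 11.10, 10.33 and 10.42 in dEx1A cells, against 8.58, 8.40 and 8.87 in wild type cells. It was higher by 2.00 ± 0.29 (adjusted p = 1.2e-06). Igha had a difference of 1.46 that did not pass (adjusted p = 0.0561). Without wild type replicate 3, 2 of the 12 constant genes were higher. Under LPS, 5 of the 12 were higher and 1 was lower, with a median of 0.12. In the TLR culture 4 were lower and 0 were higher, with a median of -0.30.

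The mix of heavy chain isotypes differed as well. Ighm gave 66.2%, 75.6% and 77.4% of heavy chain constant reads in dEx1A cells, against 43.8%, 41.8% and 49.8% in wild type cells. Ighg1 gave 30.0%, 19.8% and 19.8% in dEx1A cells, against 54.3%, 56.8% and 49.4% in wild type cells. Neither pair of ranges overlapped. In the TLR culture Ighm gave 92.9%, 92% and 92.7% in dEx1A cells, against 76.3%, 73.6% and 75.5% in wild type cells. Ighg1 gave 5.23%, 5.44% and 4.84% in dEx1A cells there, against 21.9%, 24.3% and 22.6% in wild type cells. Ighe was a small share in both groups, with 0.253%, 0.340% and 0.169% in dEx1A cells, against 0.0199%, 0.0122% and 0.0103% in wild type cells. Igha gave 2.51%, 3.76% and 2.13% in dEx1A cells, against 0.152%, 0.309% and 0.249% in wild type cells, without overlap. In the TLR culture the Igha ranges overlapped. The Ighe share was lower in dEx1A cells there, with 0.0417%, 0.037% and 0.0285%, against 0.118%, 0.131% and 0.119% in wild type cells. Among 215 immunoglobulin variable genes tested, 200 were lower, with a median of -3.07. Reads of such similar genes may have been split between family members by the authors' counting. Under LPS, 60 of them were lower and 30 were higher, with a median of -0.55.

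Genes of the secretory programme were lower more often than higher. Of 25 plasma cell identity genes, 16 were lower and 1 was higher, with a median of -0.99. Without dEx1A replicate 2, 10 were lower and 3 were higher, and a fit of the 2 compared groups alone left 10 lower. In the TLR culture 8 were lower and 8 were higher, with a median of 0.30. Jchain, which joins IgM and IgA into polymers, had 15.38, 14.39 and 15.80 in dEx1A cells, against 18.81, 18.47 and 18.90 in wild type cells. The groups did not overlap, and the difference was -3.54 ± 0.41 (adjusted p = 3.27e-08), with -1.91 already at day 4 (adjusted p = 0.00698). Sdc1, the plasma cell surface marker CD138, had 9.54, 8.67 and 9.67 in dEx1A cells, against 10.02, 10.53 and 11.11 in wild type cells. Its difference was -1.26 ± 0.29 (adjusted p = 0.000639), or -2.34 after the correction, and in the LPS culture it was 0.79 and did not pass (adjusted p = 0.112). Slpi, a secreted protease inhibitor, was lower in both cultures, with differences of -3.02 ± 0.46 in the BCR culture and -2.36 in the LPS culture. Prg2 was lower in both as well, with -2.10 in the BCR culture and -4.38 in the LPS culture. Itgb7, an integrin of gut homing, was the 1 higher gene at 1.60, or 0.46 after the correction (adjusted p = 0.0119).

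Of 28 genes for ER folding, export and degradation, 17 were lower and 1 was higher, with a median of -0.54. Ero1lb, an oxidase that helps form disulphide bonds, had 10.17, 9.81 and 10.39 in dEx1A cells, against 13.08, 12.84 and 13.11 in wild type cells. It differed by -2.89 ± 0.20 (adjusted p = 1.19e-12). Ern1, which encodes the stress sensor IRE1 that splices Xbp1, differed by -2.59 ± 0.22, and the ER cochaperone Dnajb9 by -2.51 ± 0.28. Sel1l, of the degradation complex, differed by -2.23. Hspa5, the main ER chaperone, differed by -0.98 ± 0.19. Sec61b, a subunit of the translocation channel, was higher by 0.60 (adjusted p = 0.0335), a call lost after the correction (-0.50, adjusted p = 0.204). With the compared groups alone, 10 of the 28 were lower. Under LPS 1 was lower, and in the TLR culture 14 were lower and 6 were higher, with a median of -0.32.

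Markers of mature B cells were also lower in dEx1A cells. Of 24 such genes, 15 were lower and 2 were higher, with a median of -1.32. Cr2, the complement receptor CD21, had 4.89, 5.69 and 5.23 in dEx1A cells, against 9.11, 8.82 and 8.24 in wild type cells. The groups did not overlap, and the difference was -3.45 ± 0.27 (adjusted p = 1.88e-11). Fcmr, the receptor for IgM, differed by -3.20 ± 0.26, Fcrla by -2.42 ± 0.17 and Ms4a1, which encodes CD20, by -2.30 ± 0.23, or -1.47 after the correction. The activation marker Cd69 was higher by 0.85 and Cd40, the receptor for the feeder signal, by 0.75 (adjusted p = 0.0057). The Cd40 difference was 0.17 after GC and length correction and did not pass (adjusted p = 0.353). Of 24 B cell transcription factors, 16 were lower and 5 were higher, with a median of -1.01. Ets1, which restrains plasma cell formation, differed by -2.09, and Ebf1, an early B cell factor, by -1.46. Batf, an AP-1 factor of class switching, was higher, with 10.92, 10.32 and 10.08 in dEx1A cells, against 7.39, 7.76 and 7.59 in wild type cells, a difference of 2.86 ± 0.26. Under LPS, 5 of the 24 mature B cell genes were lower, with a median of -0.12, and in the TLR culture 14 were lower and 4 were higher, with a median of -0.75. These mature B cell genes had a median change of 0.14 between day 4 and day 7 in dEx1A cells and of 1.50 in wild type cells.

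Germinal centre and class switching genes went both ways, with 6 of 16 higher and 7 lower and a median of 0.22. Nuggc, a nuclear GTPase of germinal centre B cells, had 5.81, 4.60 and 5.58 in dEx1A cells, against 9.99, 10.28 and 10.21 in wild type cells. It differed by -4.83 ± 0.28 (adjusted p = 2.82e-14). Mybl1, a transcription factor of dividing germinal centre cells, differed by -3.38 ± 0.34. Il4ra, the receptor for the IL-4 in the medium, had 13.36, 13.73 and 13.44 in dEx1A cells, against 10.58, 11.35 and 11.50 in wild type cells. It was higher by 2.37 ± 0.30 (adjusted p = 1.76e-07).

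Genes of cell division and growth were higher in dEx1A cells. Of 28 cell division genes, 21 were higher and 1 was lower, with a median of 0.99. Mcm5, part of the replicative helicase, had 12.52, 12.35 and 12.25 in dEx1A cells, against 10.00, 10.73 and 10.56 in wild type cells. The groups did not overlap, and the difference was 1.94 ± 0.31 (adjusted p = 4.97e-06). Tyms, which makes thymidylate for DNA synthesis, had 10.87, 10.68 and 10.36 in dEx1A cells, against 8.92, 8.69 and 8.47 in wild type cells, and was higher by 1.94 ± 0.14 (adjusted p = 1.81e-12). Mki67, the usual proliferation marker, was the 1 lower gene, with 13.59, 13.99 and 14.05 in dEx1A cells, against 14.60, 14.63 and 14.47 in wild type cells. Its difference of -0.69 ± 0.21 (adjusted p = 0.00739) became -0.06 once GC content and length were corrected for (adjusted p = 0.768). Without dEx1A replicate 1 it was -0.55 (adjusted p = 0.0579). Between day 4 and day 7 the 28 genes had a median change of -0.29 in dEx1A cells, with 6 higher and 15 lower, and of -1.16 in wild type cells, with 23 lower. Over all tested genes, 53.9% passed in that step in dEx1A cells and 37.9% in wild type cells.

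Of 20 MYC targets and ribosome biogenesis genes, 17 were higher and 1 was lower, with a median of 1.04. Bop1, which processes ribosomal RNA, was higher by 2.01 ± 0.48, or 1.03 after GC and length correction. Fbl, which methylates it, was higher by 1.88 ± 0.25, or 1.02 after the correction. Srm, the spermidine synthase, was higher by 1.78, or 0.75 after the correction, a call that was lost without wild type replicate 1. Gnl3, a nucleolar GTPase, was lower by a difference of -0.56, or -0.25 after the correction. Of 74 genes of cytosolic ribosomal proteins, 69 were higher, with a median of 1.12, and after GC and length correction 63 were higher and 1 was lower with a median of 0.71. Glycolysis and hypoxia genes were higher in 13 of 17 cases and lower in 1, with a median of 1.51, and 0.63 after the correction. Eno1, an enolase, had 14.22, 13.63 and 13.97 in dEx1A cells, against 10.67, 11.49 and 11.56 in wild type cells. It was higher by 2.70 ± 0.33 (adjusted p = 1.05e-07). Gapdh was higher by 2.43 ± 0.42 (1.59 after the correction), the lactate exporter Slc16a3 by 2.31 (1.47 after it) and Pkm by 2.20, and Pdk1, which restrains pyruvate entry into mitochondria, was lower by a difference of -0.65. The medians in the LPS culture were -0.19 for cell division, 0.19 for the MYC list, 0.20 for ribosomal proteins and 0.14 for glycolysis. In the TLR culture the cell division list had a median of 0.77 with 23 of 28 genes higher, the MYC list 0.71 with 14 of 20 higher, and the glycolysis list 1.22 with 14 of 17 higher.

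Targets and subunits of NF-kB were higher in dEx1A cells, 17 of 20 against 2 lower, with a median of 1.44. After GC and length correction 14 were higher and 2 were lower, with a median of 1.04. Under LPS 1 was higher and 3 were lower. Ccl22, a chemokine that attracts T cells, had 16.87, 17.41 and 16.46 in dEx1A cells, against 13.86, 13.86 and 13.24 in wild type cells. The groups were far apart, and the difference was 3.26 ± 0.24 (adjusted p = 4.94e-12). Under LPS, Ccl22 was lower in dEx1A cells, with 10.33, 10.74 and 10.50, against 11.94, 11.70 and 11.23 in wild type cells (-1.10, adjusted p = 0.00266). Tnfrsf8, the activation receptor CD30, had 12.28, 12.85 and 12.16 in dEx1A cells, against 7.85, 8.07 and 8.47 in wild type cells, and was higher by 4.30 ± 0.20 (adjusted p = 1.34e-16). Lta, a lymphotoxin, was higher by 2.97 ± 0.28. The subunit Rel was lower by a difference of -0.83 (adjusted p = 0.00937), which GC and length correction turned to 0.17 (adjusted p = 0.279). Without dEx1A replicate 1, and likewise without wild type replicate 1, both lower calls of the list were lost. In the TLR culture 13 of the 20 were higher and 1 was lower, with a median of 1.09. These 20 genes had a median change between day 4 and day 7 of 0.36 in dEx1A cells and of -0.54 in wild type cells.

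Receptors and brakes of cytokine signalling were higher in 9 of 20 cases and lower in 4, with a median of 0.43. Il2ra, a chain of the IL-2 receptor, had 11.84, 12.95 and 12.03 in dEx1A cells, against 10.29, 9.76 and 9.55 in wild type cells, and was higher by 2.41 ± 0.23 (adjusted p = 8.98e-10). The feedback inhibitors Socs1 and Cish were higher by 2.52 ± 0.29 and 2.21 ± 0.24. Il6st, the signalling chain for the IL-6 in the medium, was lower, with 8.51, 8.56 and 9.97 in dEx1A cells, against 10.91, 11.01 and 11.38 in wild type cells (-2.09 ± 0.22, adjusted p = 5.07e-09). Il5ra, the receptor for IL-5, differed by -1.20 ± 0.24, or -0.59 after the correction. In the BCL2 family, which decides between survival and death, 8 of 14 genes were higher and 3 were lower, with a median of 0.95, and after GC and length correction 6 were lower. Bax, an executioner of apoptosis, was higher by 2.62 ± 0.58 (1.47 after the correction), Bbc3, which encodes PUMA, by 2.01 ± 0.42 (1.01 after it) and Pmaip1, which encodes NOXA, by 1.73 ± 0.25. Mcl1, on which plasma cells depend for survival, had 12.91, 12.81 and 12.98 in dEx1A cells, against 14.17, 13.84 and 13.82 in wild type cells (-1.04 ± 0.16, adjusted p = 3.38e-06).

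The remaining gene groups had members that passed in each direction. Of 20 ATF4 and CHOP response genes, 7 were higher and 4 were lower, with a median of 0.20. After GC and length correction 5 were higher and 8 were lower, with a median of -0.43. Atf3 was higher by 1.81, Sesn2 by 1.66 (1.02 after the correction) and Shmt2 by 1.52 (0.45 after it), and Chac1, which degrades glutathione, was lower by a difference of -1.56. Of 17 genes of mTORC1 and amino acid sensing, 3 were higher and 7 were lower, with a median of -0.38, and after the correction 1 was higher and 10 were lower, with a median of -0.43. Sesn3, a brake on mTORC1, differed by -2.19 ± 0.17 and Slc38a9, a lysosomal arginine sensor, by -1.88 ± 0.19. Of 12 genes of MHC class II presentation, 3 were higher and 4 were lower, with a median of -0.00, and 1 was higher and 6 were lower after the correction. H2-Ob, which limits peptide loading, had 11.00, 9.90 and 10.23 in dEx1A cells, against 13.30, 13.31 and 12.92 in wild type cells (-2.80 ± 0.17). Ciita, the master regulator of class II, differed by -1.33, and H2-DMa was higher by 1.57, or 0.78 after the correction, a call lost without wild type replicate 1.

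Of 22 genes of cholesterol and fatty acid synthesis, 5 were higher and 10 were lower, with a median of -0.06. Insig1, which holds sterol regulators in the ER, differed by -1.57, Mvd by 2.25 (1.41 after the correction) and Fasn, the fatty acid synthase, by 1.78 (0.72 after it). The call on Mvd was lost without wild type replicate 1. Of 23 interferon-stimulated genes, 2 were higher and 6 were lower, with a median of 0.06, and 4 were higher after the correction. Oas1a, an antiviral synthetase, was higher by 1.78, and Ddx58, which encodes the RNA sensor RIG-I, was lower by a difference of -1.43. Of 19 homing and adhesion genes tested, 4 were higher and 8 were lower, with a median of -0.30. Ccr6, a mucosal chemokine receptor, had 7.13, 6.72 and 7.31 in dEx1A cells, against 10.23, 10.06 and 10.11 in wild type cells (-3.08 ± 0.25).

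**Figure D3:**
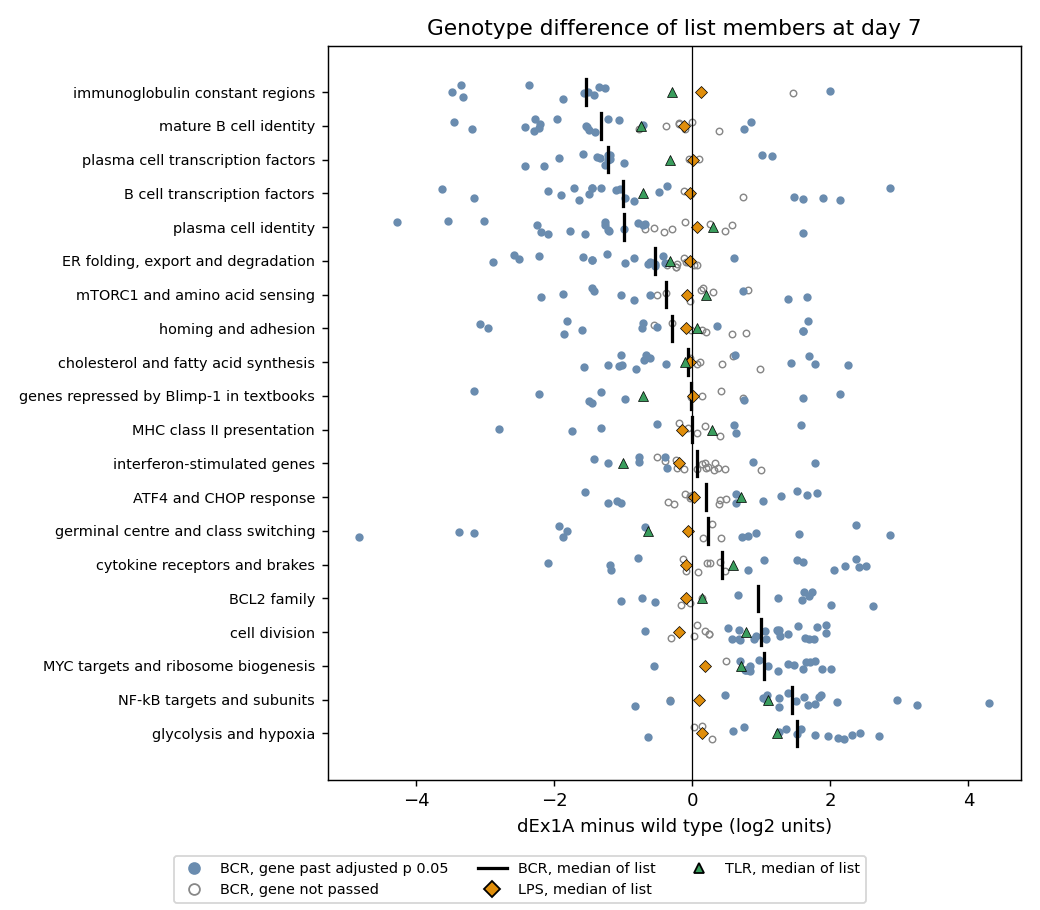
Genotype difference at day 7 (horizontal axis, dEx1A minus wild type in log2 units) of the members of each of 20 gene lists (rows). Blue points passed in the BCR culture and open points did not, black bars are BCR list medians orange diamonds are LPS list medians and green triangles TLR list medians. The LPS medians lie between -0.20 and 0.19, the TLR medians between -1.01 and 1.22, and the BCR medians run from -1.54 for immunoglobulin constant genes to 1.51 for glycolysis.

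The 12 protein-coding genes that were highest in dEx1A cells were selected for that difference among genes that passed with and without GC correction and whose groups did not overlap, so their BCR day 7 values are a description. Sprr2a2, a small proline-rich protein of epithelia, had 10.31, 11.34 and 10.19 in dEx1A cells and 0 reads in all 3 wild type libraries. Against a floor of 3 reads per library it was at least 716-fold higher. Ccl17, a chemokine related to Ccl22, had 12.51, 12.74 and 11.85 in dEx1A cells, against 6.03, 5.64 and 5.30 in wild type cells, a difference of 6.71 ± 0.38. At day 4 both genotypes held Ccl17, with 10.43, 11.34 and 10.98 in dEx1A cells, against 10.06, 10.54 and 9.55 in wild type cells, and the ranges overlapped.

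Nov, a secreted matricellular protein also called CCN3, had 11.29, 12.17 and 11.72 in dEx1A cells, against 7.00, 6.43 and 5.78 in wild type cells (5.32 ± 0.25). Thy1, a surface glycoprotein of T cells and fibroblasts, had 12.72, 12.73 and 12.19 in dEx1A cells, against 7.95, 7.65 and 7.54 in wild type cells (4.83 ± 0.32). Vdr, the vitamin D receptor, had 9.71, 11.00 and 10.23 in dEx1A cells, against 5.62, 5.62 and 5.64 in wild type cells (4.69 ± 0.24). Thy1 belongs to the list of feeder fibroblast markers, which summed to 368, 429 and 284 RPM in dEx1A cells, against 28.6, 22.5 and 22.4 RPM in wild type cells. Without Thy1 that list summed to 13.5, 14.9 and 18.0 RPM in dEx1A cells, against 17.7, 13.9 and 15.5 RPM in wild type cells, which overlapped. Of the 8 tested fibroblast markers 2 were higher, Thy1 and Pdgfrb, and the collagen gene Col1a1 had 35, 17 and 34 reads in dEx1A cells, against 17, 33 and 45 in wild type cells. Cd3e, which defines T cells, had 24, 2 and 63 reads in dEx1A cells, against 40, 13 and 6 in wild type cells, which overlapped.

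Batf3, a transcription factor related to Batf, was higher by 4.59 ± 0.39, Apoc2, an apolipoprotein, by 4.31 ± 0.32 and Csn2, a milk casein, by 4.28 ± 0.23. Cdkn2a, the cell cycle inhibitor locus, had 10.11, 8.38 and 9.28 in dEx1A cells, against 4.18, 4.91 and 5.67 in wild type cells (4.34 ± 0.45). It was also higher in the LPS culture, by 1.95 (adjusted p = 0.0041), as was Tnfrsf8 by 2.26 (adjusted p = 5.63e-10). Rpl36, a ribosomal protein gene, had 13.44, 11.42 and 11.84 in dEx1A cells, against 5.86, 8.27 and 9.49 in wild type cells, a difference of 4.36 ± 0.94. AC154187.2 had 11.45, 10.45 and 10.74 in dEx1A cells, against 3.04, 5.66 and 9.37 in wild type cells. The wild type libraries of both genes lie far apart. The AC154187.2 difference of 4.86 ± 1.46 (adjusted p = 0.00632) was 3.37 without wild type replicate 1 (adjusted p = 0.0784). Of the 12 genes, 2 passed in the same direction in the BCR culture at day 4, 2 in the LPS culture and 12 in the TLR culture.

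The 12 lowest genes were selected in the same way. Gm32687 had 0 reads in all 3 dEx1A libraries and a level of 9.11, 8.47 and 8.32 in wild type cells, so it was at least 134-fold lower in dEx1A cells. It was at 0 reads in both genotypes of the LPS culture, and in all dEx1A libraries of BCR day 4 against 8.36, 7.63 and 8.48 in wild type cells. Cacna1e, a voltage-gated calcium channel subunit, had 6.13, 5.89 and 6.77 in dEx1A cells, against 11.33, 10.94 and 11.48 in wild type cells (-4.99 ± 0.26). Under LPS, Cacna1e had 12.28, 12.29 and 12.56 in dEx1A cells, against 12.35, 12.61 and 12.60 in wild type cells.

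Thbd, the thrombin receptor thrombomodulin, had 5.39, 4.66 and 6.51 in dEx1A cells, against 9.57, 9.66 and 10.16 in wild type cells (-4.28 ± 0.27). It was also lower in the LPS culture, by a difference of -3.04 (adjusted p = 5.01e-10), as was Nuggc by -2.47 (adjusted p = 1.29e-07). Cep85, a centrosomal protein, had 9.39, 9.49 and 9.36 in dEx1A cells, against 13.64, 14.28 and 12.99 in wild type cells (-4.22 ± 0.27), and differed by -2.85 at day 4 and -1.38 in the LPS culture. The other members were Ms4a4c (-3.97), Cpm, a carboxypeptidase (-3.89), Lrrk2, a kinase (-3.71), Hdac9, a histone deacetylase (-3.62), Nxpe2 (-3.54), Bach2 and Jchain. Nxpe2 had 5.53, 5.63 and 5.86 in dEx1A cells, against 9.49, 9.48 and 8.67 in wild type cells, while at day 4 it was higher in dEx1A cells by 1.64 (adjusted p = 0.000806). Of the 12 genes, 3 passed in the same direction at day 4 and 1 in the opposite one, 5 and 1 did so in the LPS culture, and 12 passed in the same direction in the TLR culture.

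**Figure D4:**
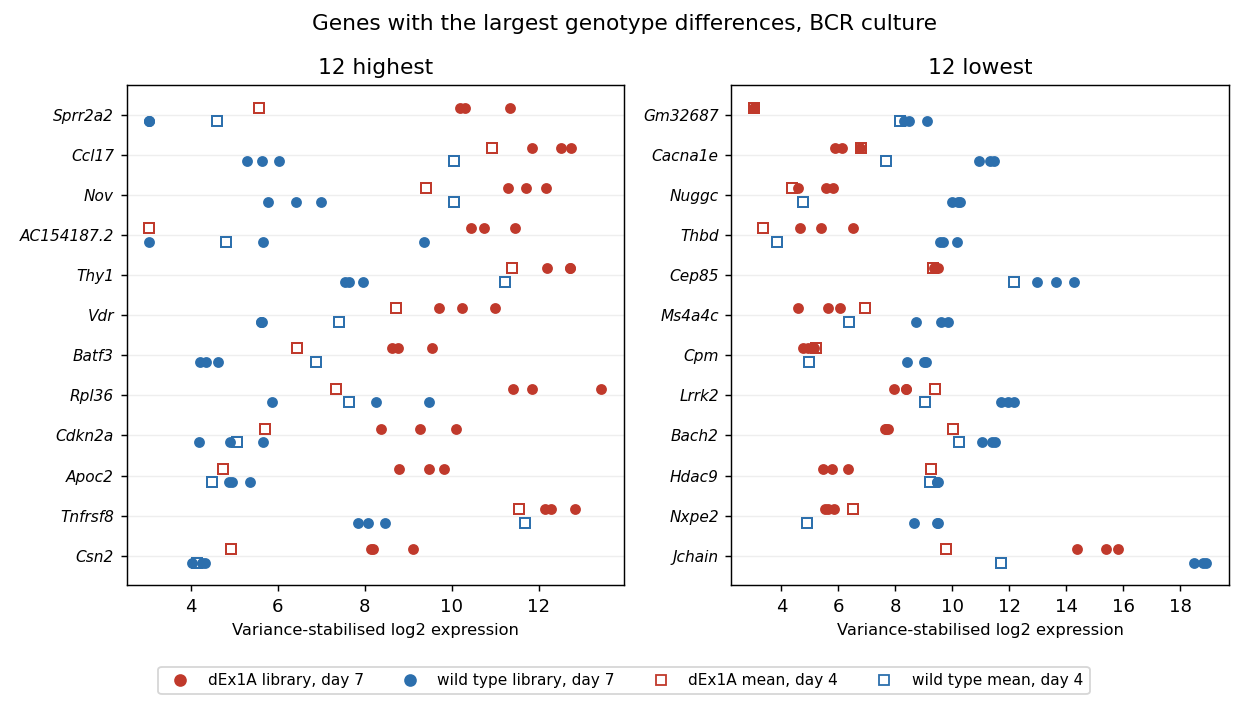
Variance-stabilised log2 level in the BCR culture of the 12 highest (left) and 12 lowest (right) genes by genotype difference at day 7. Filled points are day 7 libraries and open squares day 4 means, with dEx1A drawn above wild type in each row. The filled points of the genotypes are apart in every row, as the selection requires, while the squares of Ccl17, Nov and Thy1 lie close together.

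The genotype difference at day 7 was set against that at day 4 of the same culture, gene by gene. The change was upward for 3274 genes, or 16.7%, and downward for 3409, or 17.3%. After GC and length correction these counts were 3141 and 3564. The largest changes were sought among autosomal protein-coding genes whose change passed with and without GC correction in the same direction. Their groups at BCR day 7 also did not overlap, and their mean was at least 8 in the highest group. These changes were in Ccl17 (5.84 ± 0.53), Nov (5.98 ± 0.35), Sprr2a2 (6.61), Batf3 (5.01 ± 0.56), AC154187.2 (6.61 ± 2.06) and Nxpe2 (-5.18 ± 0.41). Ccl17 rose between day 4 and day 7 by 1.45 in dEx1A cells and fell by 4.39 in wild type cells. Nov likewise rose by 2.32 in dEx1A cells and fell by 3.66 in wild type cells. Bach2 fell by 2.34 in dEx1A cells between these days and rose by 1.07 in wild type cells. For Bcl6 the change of -0.36 in dEx1A cells did not pass (adjusted p = 0.0549), and it rose by 2.17 in wild type cells. Cell division genes had an upward change of the genotype difference in 20 of 28 cases, and mature B cell genes a downward one in 16 of 24.

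The same was done between the BCR and LPS cultures at day 7, which share no library. The BCR difference was above the LPS difference for 3594 genes, or 18.3%, and below it for 3431, or 17.5%. After GC and length correction these counts were 3459 and 3615. The wild type cells of the BCR culture were labelled male and 7 weeks old and those of the LPS culture female and 9 weeks old, so culture and these labels cannot be told apart in this contrast. Of the 4774 genes that passed with a difference of at least 1 in the BCR culture, 487 passed in the LPS culture. These 487 are 10.2% of the BCR genes and 34.9% of the LPS genes, and 365 of them moved in the same direction. Among all genes tested, 7.1% passed in the LPS culture, and 24.3% passed with a difference of at least 1 in the BCR culture. Among genes that met the filters given for the change since day 4, now applied to this contrast, the largest contrasts were Sprr2a2 (7.57), Ccl17 (6.62 ± 0.53), Gm32687 (-5.59), Nov (5.32 ± 0.35), Thy1 (5.03 ± 0.46) and Cacna1e (-4.84 ± 0.36). Nov and Sprr2a2 were at 0 reads in all LPS day 7 libraries of both genotypes. Genes on the list of plasma cell factors had a BCR difference below the LPS difference in 11 of 16 cases and above it in 1. ER genes were below it in 13 of 28 cases, and cell division genes were above it in 21 of 28 and below it in 1.

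Genes near Prdm1 were examined because they flank the deleted exon. Of 28 genes tested that lie at least in part within 1 Mb of the gene, Prdm1 included, 10 were higher and 7 were lower at BCR day 7, where 50.9% of all tested genes passed. Under LPS, 15 of the 28 were higher and 1 was lower, where 7.1% of all tested genes passed, and in the TLR culture 15 were higher and 4 were lower, where 55.0% passed. Atg5, an autophagy gene whose start lies 260.1 kb downstream of the most upstream annotated Prdm1 start, had 10.75, 10.40 and 10.94 in dEx1A cells, against 9.53, 9.42 and 9.24 in wild type cells. It was higher by 1.30 ± 0.17 in the BCR culture and by 1.71 in the LPS culture. Gm35028, at 104.2 kb, had 6.60, 6.11 and 6.31 in dEx1A cells, against 3.86, 3.83 and 3.81 in wild type cells, where it had 3 or 4 reads, and differed by 2.51 in the BCR and 2.82 in the LPS culture. Prep, a peptidase on the other side, was higher by 0.91 in the BCR culture, or 1.70 after the correction, and by 1.15 in the LPS culture. Cd24a, a surface glycoprotein of B cells, was lower by a difference of -1.53 in the BCR culture, and its LPS difference of 0.36 did not pass.

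**Figure D5:**
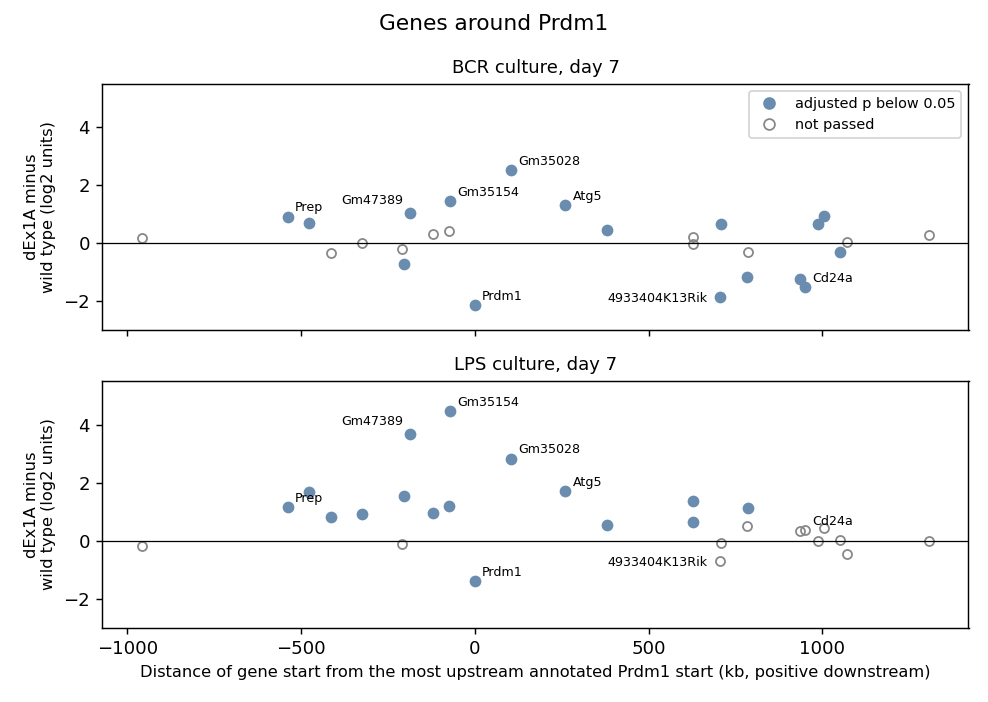
Genotype difference (vertical axis, dEx1A minus wild type in log2 units) of the 28 genes within 1 Mb of Prdm1 against the distance of their start from the most upstream annotated Prdm1 start (horizontal axis, kb), in the BCR culture (top) and the LPS culture (bottom) at day 7. Blue points passed and open points did not. Gm35154, Gm47389, Gm35028 and Atg5 lie above 0 in both cultures and Prdm1 lies below it.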

How the data were processed

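RNA from cultured splenic B cells was sequenced with the TruSeq Stranded Total RNA kit as single reads of 76 bases, per the labels' protocols. The authors deposited variance-stabilised log2 levels per gene, per the file names. Per the submitters' processing notes, the software was R 3.5.1, DESeq2 1.22.2, RSEM 1.3.0, STAR 2.6.0c, Trim Galore 0.6.0 and FastQC 0.11.8, and the builds named were mm10, GRCm38.p6 and GRCh38.p12. What each did, the annotation and the strand setting are not given in the sources used, so overlapping and antisense genes, among them the Gm genes near Prdm1, are uncertain.

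Genes were kept where at least 3 libraries exceeded the value of 0 reads by at least 1 (20331 genes, 19657 autosomal). limma 3.58.1 (R 4.3.3) fitted 13 group means with a mean trend and 26 residual degrees of freedom, and p-values were adjusted by Benjamini-Hochberg over all 20331 genes. GC and length trends were removed with mgcv 1.9.3 over 7152 genes. Reads were recovered by inverting the transformation, with at least 97.6% of values under 20 reads whole within 0.1 in the 6 libraries. No 2 of these were copies (chi-square per gene 61.62 to 246.67). The transformation compresses low genes, which understates their differences. On simulated data for this comparison, 98% of 4-fold and 42% of 2-fold changes passed, and 7.3% of the calls were false. The simulation changed only 100 genes by each size, with a fixed dispersion and no GC trend. These settings differ from the data, so the rates may not hold for the calls given here. Coordinates come from GENCODE M21 (28187 of 28196 identifiers matched), and Cnksr3 was left out for a value below the floor.

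The members and gene lists were chosen with earlier results of these data known. Named were 11 fixed genes, 1 of which is not reported here, the 12 highest and 12 lowest protein-coding genes with a mean of at least 8 in the higher group, up to 4 examples per list by size, 6 per contrast, and genes that passed within 1 Mb of Prdm1; other list members are given after their values were seen. Alternatives were other filters, median centring, voom on recovered reads, a replicate block, the compared groups alone and leaving out each library.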

Additional observations from a re-analysis of the deposited data

Results flagged for a closer look

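The genotype difference in the BCR culture changed between day 4 and day 7 past the threshold for 6683 genes, tested as an interaction in the limma fit. Among the autosomal protein-coding genes that met the filters given in the results, the largest changes were 6.61 for AC154187.2, 6.61 for Sprr2a2, 5.98 for Nov, 5.84 for Ccl17, -5.18 for Nxpe2 and 5.01 for Batf3, in log2 units. The wild type libraries of AC154187.2 at day 7 lay far apart. Sprr2a2 had 0 reads in the wild type libraries at day 7, so its fitted value is no bound. The genotype difference at day 7 differed between the BCR and LPS cultures for 7025 genes by the same kind of test. By the same filters, the largest of these were 7.57 for Sprr2a2, 6.62 for Ccl17, -5.59 for Gm32687, 5.32 for Nov, 5.03 for Thy1 and -4.84 for Cacna1e. Sprr2a2, Nov and Gm32687 had 0 reads in all LPS libraries at day 7.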

How the results depend on the processing

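When the fit held the compared groups alone, 3244 genes were higher and 2947 lower at BCR day 7, and the change since day 4 passed for 1780 upward and 1922 downward. Among genes with a mean of at least 8, with fewer genes tested, these counts were 2807, 2534, 1874 and 1930, and the contrast with LPS passed for 2069 upward and 1912 downward. The other fits gave 4718 higher and 5121 lower genes at BCR day 7 with GC and length correction, 5241 and 4988 without a filter, 4728 and 5401 with median centring and 5198 and 4841 with voom. The median of 7152 well-expressed genes lay 0.067 above 0. Same-numbered dEx1A and wild type libraries at BCR day 7 did not deviate together (correlations -0.52, -0.35 and -0.16). Whether same-numbered libraries of a genotype pair between days or cultures was not checked. The replicate block gave 5235 and 4929, and with GC correction it gave 4784 and 5161.

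Leaving out 1 library at a time gave 4171 to 5147 higher and 3971 to 4877 lower genes at BCR day 7. The change since day 4 then passed for 2282 to 3631 upward and 2610 to 3582 downward, and the contrast with LPS for 2734 to 3867 upward and 2600 to 3601 downward. Prdm1 ran from -2.40 to -2.01. Of 1760 gene-by-setting values for the 130 genes named by rule, 1692 kept their call, 66 no longer passed, 2 newly passed and 0 passed in the opposite direction. Sec61b and Rel changed sign after GC and length correction, without passing there. Calls on Tyrobp, Nkg7, Mpo, Elane, Prss34, Gata2, Cst3 and Pdgfrb were lost in 1 or more settings. With 3 libraries a group and 17.05 to 33.77 M reads each, smaller differences can be missed.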
